A study of Mus musculus with 12 samples.

Results

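The probe sets described here carry the names of mouse microRNA genes. They were chosen by symbol, starting with "Mir" and a digit or with "Mirlet" and not ending in "hg", and by signal: the value had to lie above the median of its own array on at least 3 of the 12 arrays. Of 532 microRNA-named probe sets, 141 met that rule (26.5%), against 13737 of all 24704 named genes (55.6%). The remaining 391 are called dim here. Because the level chose the members, their levels are given as a description without a test. Mir5112, Mir1932 and Mir187 were also named in the rule, with results of these arrays already known.

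Ventricular myocytes were isolated with the Langendorff perfusion system from 6 adult mice, cultured, and profiled on Affymetrix arrays from total RNA. Of these mice, 3 were wild type (WT) and 3 were a double knockout (DKO) deficient for CaMKIIδ and CaMKIIγ, a calcium/calmodulin-dependent kinase whose delta form is the main one in the heart. Myocytes of each mouse gave 1 untreated array and 1 array after 100 nM Iso (isoproterenol, an agonist of the beta-adrenergic receptors) for 24 h. The groups were thus untreated WT, Iso-treated WT, untreated DKO and Iso-treated DKO, with 3 arrays each, and the precision of all values is limited by that number. The sources used here do not give strain, sex or the promoter behind the deletion. The question in the design text was whether gene expression changes that go with Iso-induced phosphorylation of a histone differ between the genotypes.

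MicroRNAs are short single-stranded RNAs that bring Argonaute proteins to messenger RNAs and lower their translation or stability. Each is cut from a hairpin in a longer primary transcript, first by Drosha with Dgcr8 in the nucleus and then by Dicer in the cytoplasm. Target choice rests mainly on the seed, bases 2 to 8 of the mature strand. Many hairpins lie in introns of other genes or in clusters that are transcribed together. In heart muscle miR-1, miR-133, miR-208 and miR-499 are the classic microRNAs, and miR-208a and miR-499 are encoded in introns of myosin heavy chain genes. A microRNA-named probe set on an expression array may detect the hairpin, the primary transcript or another RNA that overlaps it, and which of these it detected was not tested here.

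Mature sequences come from RefSeq (GRCm38.p6), which gave a hairpin for 112 members and a mature strand for 117, and they are written 5′ to 3′ with the seed in capitals. The first is the mature strand of Mir1932, whose probe set rose with Iso in WT (chr11:119390524-119390545, + strand). The next pair comes from Mir1247, which had the largest genotype difference without Iso (chr12:110278094-110278115 and chr12:110278058-110278078, − strand). The last is the 5p strand of Mir30c-2, which Mir30c-1 also encodes.
miR-1932: gUUGCGGAcagcgcuaggucgg
miR-1247-5p: aCCCGUCCcguucguccccgga
miR-1247-3p: cGGGAACGucgagacuggagc
miR-30c-5p: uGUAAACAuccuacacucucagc

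The whole hairpins of Mir1932, Mir1247 and Mir5099 are shown because they differ widely in base composition. Capitals mark the mature strands where RefSeq gives one, and the Mir5099 hairpin is printed without any. Mir1932 lies at chr11:119390472-119390561 on the + strand, Mir1247 at chr12:110278048-110278129 on the − strand and Mir5099 at chr12:36816205-36816278 on the + strand. Guanine and cytosine make up 67.8% of the Mir1932 hairpin, 74.4% of the Mir1247 hairpin and 37.8% of the Mir5099 hairpin.
Mir1932: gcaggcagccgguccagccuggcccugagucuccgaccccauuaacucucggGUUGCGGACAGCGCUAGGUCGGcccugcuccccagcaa
Mir1247: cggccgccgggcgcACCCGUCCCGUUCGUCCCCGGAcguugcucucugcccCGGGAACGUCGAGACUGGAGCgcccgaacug
Mir5099: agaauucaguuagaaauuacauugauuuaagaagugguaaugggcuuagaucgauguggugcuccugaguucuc

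The name of the group was checked against a list of 60 microRNA genes known from heart muscle, vessels and blood cells, of which 46 were on the array. Only 9 of these 46 were members: Mir27a, Mir30c-2, Mir30d, Mir15a, Mir25, Mir212, Mir143, Mir142 and Mirlet7a-1. The other 37 were dim, and 34 of them were not above the median on a single array. Their mean log2 signals over the 12 arrays ran from 2.44 to 3.10, while the array medians were 3.31 to 3.32. Mir1a-1 averaged 2.50, Mir208a 2.60, Mir499 2.56 and Mir133a-2 2.60. Mir126a, which is encoded in the endothelial gene Egfl7, averaged 2.55. Of the genes known to hold the hairpins just named, 3 were looked up. Myh6, the alpha myosin heavy chain and holder of Mir208a, stood at the 99.6th percentile of all gene means (12.1 on the log2 scale), Egfl7 at the 90.7th (7.05) and Myh7b, the myosin gene that holds Mir499, at the 73.8th (4.45). Most of the listed heart microRNA genes were thus outside the 141 members, on the same arrays on which Myh6 was bright. The same held for microRNA-named probe sets in general: of all 532, 391 were dim and 353 were never above the median.

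The sequences of the muscle and endothelial microRNAs whose probe sets were dim are given so that they can be set beside the members printed above.
miR-208a-3p: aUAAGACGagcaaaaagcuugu
miR-499-5p: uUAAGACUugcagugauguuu
miR-1a-1-5p: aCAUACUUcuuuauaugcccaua
miR-126a-3p: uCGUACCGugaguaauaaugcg

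**Figure D1:**
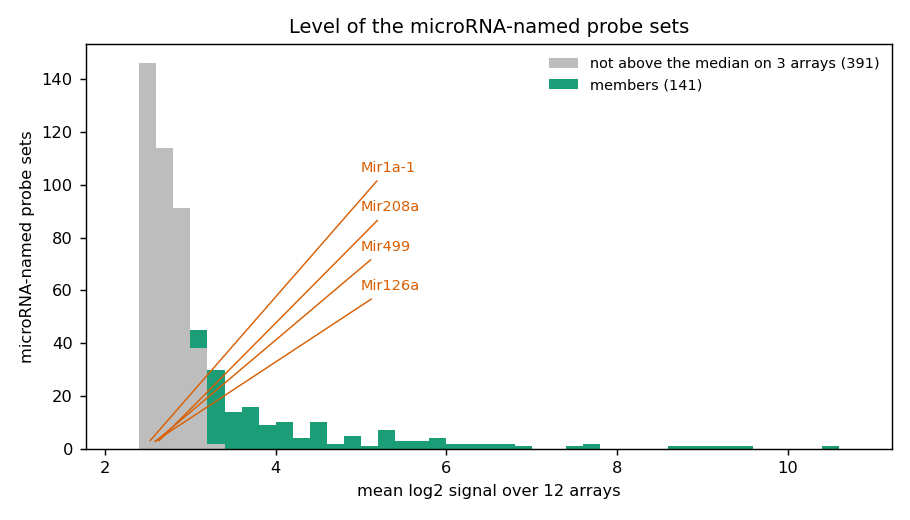
The horizontal axis is the mean log2 signal over the 12 arrays and the vertical axis the number of microRNA-named probe sets in each bin, with the 391 dim ones in grey and the 141 members in green. Lines point to 4 dim heart microRNAs: Mir1a-1, Mir208a, Mir499 and Mir126a sit between 2.50 and 2.60, in the grey peak.

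Among the members, 84 lay above the median on all 12 arrays (59.6%, against 70.1% of all genes kept) and 57 on 3 to 11. Of the latter, 24 lay above it on 3 to 6 arrays and 7 on exactly 3. Just inside the threshold were Mir3088, Mir139 and Mir1b, whose value on the array that decides, the one ranked 3 from the top, exceeded the median by 0.0071, 0.0083 and 0.01. Just outside were Mir1968, Mir3070b and Mir9-3, at -0.0176, -0.0203 and -0.0229. Members and their neighbours thus form one continuous range. Mir3061 was the only member above the median on the 3 arrays of 1 group and nowhere else, so its difference between groups follows in part from the filter.

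The highest means over the 12 arrays belonged to Mir449b (10.5), Mir692-1 (9.57), Mir483 (9.33), Mir5099 (9.10) and Mir3473c (8.89). Mir1195 (8.67), Mir5112 (7.77), Mir1954 (7.69), Mir467c (7.58) and Mir1956 (6.84) followed. Signals of different probe sets depend on how well each probe binds, so this order is not an order of amounts. Late numbers were common among the names: names numbered 1000 or above made up 56 of the 141 members (39.7%) and 95 of the 391 dim probe sets (24.3%). A neighbouring microRNA gene within 10000 nt was present for 49 members (34.8%) and for 191 of the dim ones (48.8%).

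The members also differed from the dim probe sets in a feature that the rule did not use, the base composition of the hairpin. The median share of guanine and cytosine was 57.2% in the 112 member hairpins (interquartile range 50.8% to 62.1%) and 46.4% in the 329 dim hairpins (42.1% to 52.6%). Of 51 hairpins above 60%, 41 were members (80.4%), and of 143 below 45%, 15 were (10.5%). Over all 441 hairpins the mean signal and this share had a Spearman correlation of 0.553, given as a description because probe sets share arrays and the probes' own base composition was not analysed here. The median hairpin length was 84 nt in members and 83 nt in dim probe sets.

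**Figure D2:**
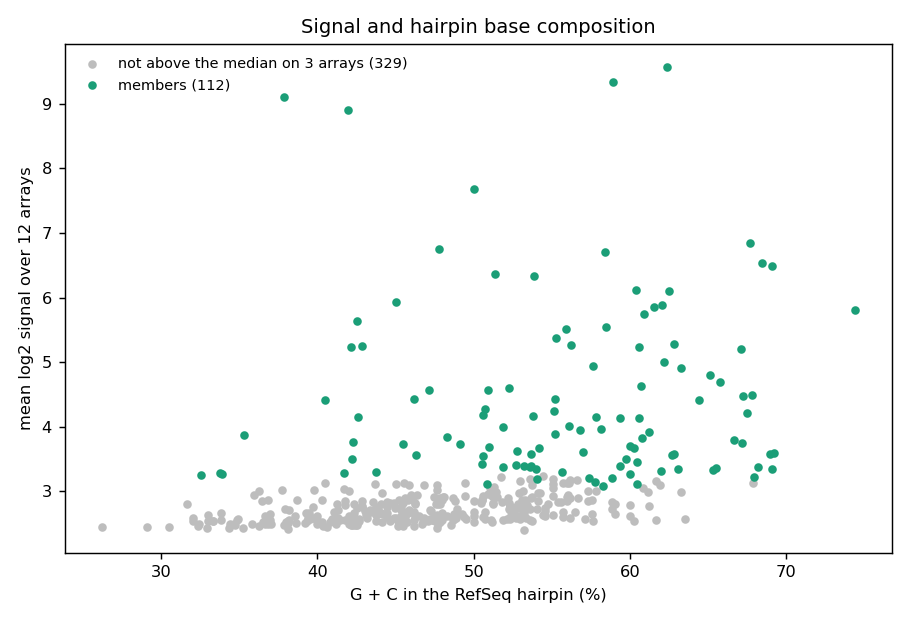
Each point is 1 microRNA-named probe set with a RefSeq hairpin; the horizontal axis is the percentage of G + C in the hairpin and the vertical axis the mean log2 signal over 12 arrays. The 112 members (green) are spread to the right of most of the 329 dim probe sets (grey), with Mir5099, at 37.8% G + C and a signal of 9.10, as a member far to the left.

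For 28 mature sequences, more than 1 gene with the same mature strand was on the array. In 21 of these cases every gene was dim, in 2 every gene was a member (Mir194-1 with Mir194-2, and Mir219a-1 with Mir219a-2), and in 5 the genes were split. Mir30c-2 was above the median on 12 arrays and Mir30c-1 on 0, although both encode miR-30c-5p. Mir9-1 was above it on 12 arrays, Mir9-3 on 2 and Mir9-2 on 0. Mir344d-2 was above it on 12 arrays, and Mir344d-1 and Mir344d-3 on 0.

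As a check of the labels, the probe set of Camk2g ranged from 4.78 to 5.80 on the 6 WT arrays and from 3.57 to 4.20 on the 6 DKO arrays, without overlap. Camk2d ranged from 7.94 to 8.42 and from 7.36 to 7.98, which overlap slightly; whether its probes lie in the deleted part is not known here, so it checks nothing. Markers of cardiomyocytes, 8 of 8, were above the median on all arrays, and so were 8 of 8 endothelial, 6 of 7 fibroblast and 5 of 7 macrophage markers. RNA of such cells was thus measured too, and in bulk RNA fewer cells of a type and less RNA per cell cannot be told apart. Untreated DKO array 3 stood apart, with a median correlation of 0.956 with the other arrays against 0.984 to 0.988 for the rest, and it held the highest value of 37 members (26.2%, against 24.5% of all genes). Another class of small RNA genes, 61 tested small nucleolar RNAs, varied far more between arrays: their median deviation from the 12-array mean was 0.73 on that array, -0.40 to -0.17 in untreated WT and -0.06 to 0.30 in Iso-treated WT. The median deviation of the 141 members stayed between -0.14 and 0.13. It was -0.14 to -0.08 in untreated WT and 0.02 to 0.08 in Iso-treated WT. On untreated DKO arrays 1, 2 and 3 it was -0.07, -0.10 and 0.13. The median signal of the small nucleolar RNAs, used below to align the arrays, was 1.12 above its 12-array mean on untreated DKO array 3. On the other arrays it was -0.44 to 0.34 from that mean.

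**Figure D3:**
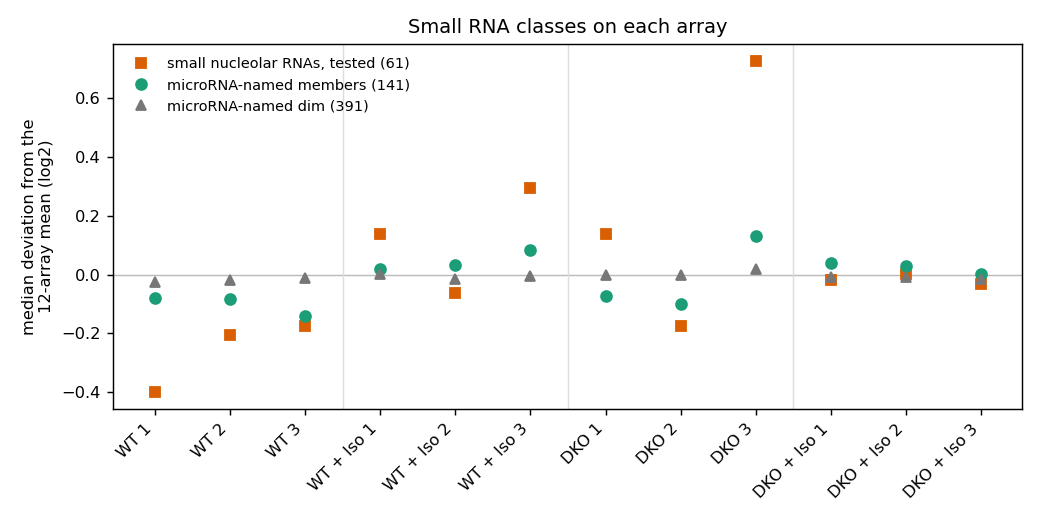
The vertical axis is the median deviation (log2) of a class of probe sets from its 12-array mean, and each column is 1 array, ordered by group. Small nucleolar RNAs (orange, 61) reach 0.73 on untreated DKO array 3 while the members (green, 141) stay between -0.14 and 0.13 and the dim probe sets (grey, 391) stay near 0.

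Iso treatment of WT myocytes raised the signals of Mir5112 and Mir1932 and left no other member past the test. Mir5112 read 5.73, 5.81 and 6.46 (log2) without treatment and 10.26, 10.08 and 10.56 after Iso. Every treated array was above every untreated one, and the smallest of the 3 within-mouse differences was 4.11. The group means were 6.00 ± 0.397 and 10.3 ± 0.244 (SD, n = 3 arrays), a log2 difference of 4.30 (SE 0.23, 19.75-fold, adjusted p = 2.198e-06). This adjusted p and those that follow come from limma, which tests moderated differences of log2 values, with the Benjamini-Hochberg method over all 13737 genes kept.

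Mir1932, a microRNA gene inside Rnf213, read 3.62, 3.80 and 3.84 untreated and 5.95, 6.20 and 6.76 with Iso. Again the groups did not overlap. The log2 difference was 2.55 (SE 0.23, 5.85-fold, adjusted p = 0.000418 in limma). Of all genes kept, 3 passed in this comparison (0.0218%), all higher, and 2 of them were members; the other was Esr1, the estrogen receptor alpha gene. Since Mir5112 and Mir1932 were named with this result known, their share of the calls is a description.

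The next smallest p-values belonged to Mir187, Mir3097, Mir5099 and Mir760, none of which passed. Mir187 read 4.96, 5.49 and 4.56 untreated and 6.39, 6.40 and 6.58 with Iso, a difference of 1.46 (SE 0.34, adjusted p = 0.349 in limma). Mir5099 read 8.16, 8.74 and 8.38 untreated and 9.62, 9.55 and 9.88 with Iso, a difference of 1.26 (SE 0.33, adjusted p = 0.442). In both, every treated array lay above every untreated one. Mir5099 passed without untreated DKO array 3 (adjusted p = 0.0308) and when only the WT arrays were fitted (0.0472); across all alternatives its adjusted p ran from 0.0308 to 0.993.

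Mir3097, which lies in Rgs12, differed by 1.71 (adjusted p = 0.442), from 3.23 to 3.58 untreated and from 4.42 to 5.57 with Iso. Mir760 differed by 0.50 (adjusted p = 0.458), from 4.11 to 4.38 and from 4.71 to 4.83. Over the 141 members the median log2 difference was 0.14, against -0.01 over all genes tested, and 100 members lay above 0 (70.9%, against 47.8% of all genes). This shift was not particular to the members: the 61 tested small nucleolar RNAs had a median of 0.33, with 56 of 61 above 0. With arrays aligned on their small nucleolar RNAs, the members' median turned to -0.26 while that of all genes moved to -0.41. Without the level filter, the median of the 532 microRNA-named probe sets was 0.03. At an unadjusted p under 0.05 there were 17 members, all higher (12.1%, against 6.7% of all genes), and 34 members had groups that did not overlap, 33 of them higher (24.1%, against 15.6%); the lower one was Mir539.

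Among other cell types, all 4 mesothelial markers lay above 0 in this comparison, although none passed; the median was 0.35. Their signals were summed on the linear scale, and the log2 of that sum is given. It ran from 5.96 to 6.06 in untreated WT and 6.24 to 6.74 in Iso-treated WT. In DKO it ran from 6.03 to 6.37 untreated and from 5.83 to 6.16 with Iso. Of the 4 markers, 3 were above the median on all arrays. The 3 erythroid markers on the array, of which Hbb-bs was never above the median, were summed in the same way. Their values were 8.90 to 9.94, 10.12 to 10.33, 9.32 to 10.79 and 7.80 to 8.69 in the same order. The 4 atrial markers, summed in the same way, gave 12.34 to 13.04, 11.74 to 12.54, 10.94 to 11.45 and 10.73 to 11.00. That sum follows Nppa, the brightest of them, which differed by -0.68 for Iso in WT, while Sln (1.47), Myl7 (1.45) and Myl4 (0.61) lay above 0; the median of the 4 was 1.03, and Nppa and Myl4 reached an unadjusted p under 0.05, although none passed in limma. All 8 endothelial markers also lay above 0, with a median of 0.24 and 1 (Vwf, 0.45) at an unadjusted p under 0.05, as did all 8 cardiomyocyte markers, with a median of 0.12 and 3 (Ryr2, Ttn and Pln) at that p. For Iso in WT, 2 of 2 tested erythroid and 3 of 7 fibroblast markers lay above 0. So did 1 of 7 macrophage and 1 of 4 smooth muscle and pericyte markers. For the difference of effects the medians were -1.09 for the atrial, -0.50 for the endothelial and -0.63 for the mesothelial markers, with 1 of 4, 1 of 8 and 0 of 4 above 0. The erythroid (-1.51) and macrophage medians (-0.34) had 0 of 2 and 2 of 7 above 0. Cardiomyocyte (0.06), fibroblast (0.11) and smooth muscle and pericyte markers (-0.03) had 6 of 8, 4 of 7 and 1 of 4. The part of these cells in the signals of Mir5112 and Mir1932 was not tested.

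**Figure D4:**
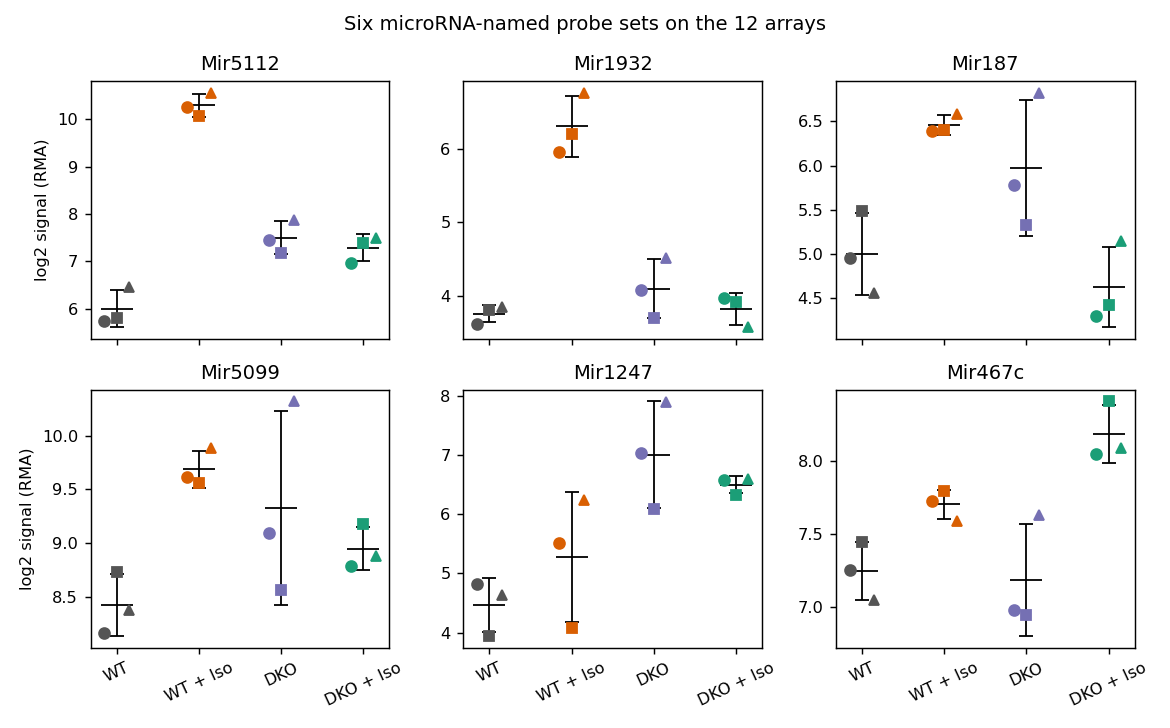
Each panel is 1 probe set and shows its log2 signal on the 12 arrays by group; circles, squares and triangles are replicates 1, 2 and 3 (the same mouse within a genotype), the long bar is the group mean and the whiskers are 1 SD. Mir5112 and Mir1932 are high on the 3 Iso-treated WT arrays only, Mir1247 is higher on all DKO arrays than on the untreated WT arrays, and Mir467c is highest on the Iso-treated DKO arrays.

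In DKO myocytes, Iso changed no member past the test in limma: 0 of 141 passed, against 7 of all genes (0.051%), 6 of these higher (0.0437%) and 1 lower (Sco2, 0.00728%). At an unadjusted p under 0.05 there were 26 members (18.4%, the same share as among all genes). Mir5112 read 7.45, 7.18 and 7.88 untreated and 6.96, 7.39 and 7.50 with Iso, and the groups overlapped. The log2 difference was -0.22 (SE 0.23, adjusted p = 0.659). Mir1932 read 4.08, 3.70 and 4.51 untreated and 3.96, 3.91 and 3.57 with Iso, also with overlap, a difference of -0.28 (SE 0.23, adjusted p = 0.540). Both of these small differences turned positive, at 0.38 and 0.32, when arrays were aligned on their small nucleolar RNAs.

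The smallest p-value among members was that of Mir467c, from the large microRNA cluster in an intron of Sfmbt2. It read 6.98, 6.95 and 7.63 untreated and 8.04, 8.41 and 8.09 with Iso, without overlap, and the log2 difference was 1.00 (SE 0.19, adjusted p = 0.0607). Leaving out untreated DKO array 2 gave 0.88 (adjusted p = 0.0377) and leaving out array 3 gave 1.22 (0.0162), both past the threshold. In WT the difference was 0.45 (adjusted p = 0.693), and the difference between the genotypes was 0.54 (0.499).

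Mir466f-4, of the same family, differed by 1.07 (SE 0.29, adjusted p = 0.105), from 3.56 to 3.99 untreated and from 4.43 to 5.17 with Iso. Mir187 ran the other way, with 5.78, 5.32 and 6.82 untreated and 4.30, 4.43 and 5.14 with Iso, a difference of -1.35 (SE 0.34, adjusted p = 0.0913). Its groups did not overlap, and it passed without untreated DKO array 2 (-1.68, adjusted p = 0.0315). Mir692-1 differed by -0.67 (adjusted p = 0.104), Mir5129 by 0.62 (0.104) and Mir3061 by -0.56 (0.0887). The members' median was 0.01, as was that of all genes, and 72 of 141 lay above 0; 23 had groups without overlap (16.3%, against 21.5% of all genes). Of the cell markers, 8 of 8 cardiomyocyte and 6 of 7 fibroblast markers lay above 0 in this comparison. Fewer did among the endothelial (1 of 8), macrophage (1 of 7), atrial (1 of 4) and tested erythroid markers (0 of 2). Mesothelial and smooth muscle and pericyte markers had 2 of 4 each. None passed in limma. The part of these cells in the members' signals was not tested.

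Without untreated DKO array 2, 5 members passed for Iso in DKO (Mir187, Mir467c, Mir5129, Mir674 and Mir692-1), against 605 of all genes, and without array 3 there were 2 (Mir467c and Mir210), against 31. Mir674 and Mir210 are named after their values were seen.

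The difference between the Iso effects, DKO minus WT, was past the test in limma for 2 members, both lower, and for no other gene (2 of 13737, 0.0146%). For Mir5112 it was -4.52 (SE 0.33, adjusted p = 7.871e-05). Within mice, Iso minus untreated was 4.53, 4.27 and 4.11 in WT and -0.49, 0.21 and -0.38 in DKO. For Mir1932 the difference of effects was -2.83 (SE 0.32, adjusted p = 0.00642), with 2.33, 2.39 and 2.92 in the WT mice and -0.11, 0.21 and -0.94 in the DKO mice. Aligned on small nucleolar RNAs, the difference of Mir1932 was -1.83 and no longer passed (adjusted p = 0.0686). In each genotype the 3 mice of Mir5112 and of Mir1932 lay closer together than the genotypes lay apart.

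Mir187 had the largest difference of effects among the members that did not pass, and its sign turned between the genotypes: 1.44, 0.91 and 2.02 in the WT mice and -1.48, -0.90 and -1.68 in the DKO mice. All WT mice were above 0 and all DKO mice below it. The difference of effects was -2.81 (SE 0.49, adjusted p = 0.102), and with the mouse as a fixed replicate block the same difference had an SE of 0.31 and an adjusted p of 0.0232, which passes and brings the members called to 3. It also passed without untreated DKO array 2 (-3.14, adjusted p = 0.0327) and without array 3 (-2.39, 0.0481). Mir5099 (-1.63, adjusted p = 0.367), Mir483 (-1.04, 0.376) and Mir5129 (0.80, 0.376) did not pass. Outside the members, Rmrp also turned sign, with 1.61 in WT and -1.61 in DKO (difference of effects -3.22, adjusted p = 0.102 in limma). So did the small nucleolar RNAs Snord17 (2.36 and -0.38) and Snord71 (1.50 and -0.60), which did not pass either. Rpph1 differed by only 0.10 and -0.02. These noncoding RNA genes are named after their values were seen. The median over members was -0.08, against 0.01 over all genes, and 15 members (10.6%, against 10.1% of all) reached an unadjusted p under 0.05. Aligned on small nucleolar RNAs, both medians turned to large positive values, 0.92 for members and 1.01 for all genes. Before that alignment the 61 small nucleolar RNAs themselves had a median of -0.70, with 12 of 61 above 0.

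**Figure D5:**
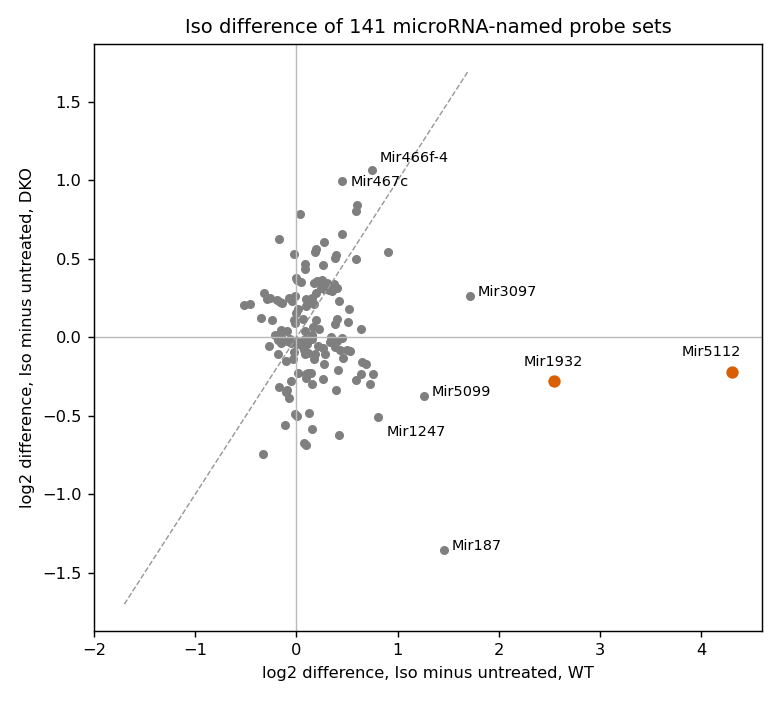
Each of the 141 points is 1 member; the horizontal axis is the log2 Iso difference in WT and the vertical axis that in DKO, with the dashed line where both are equal. Mir5112 (4.30, -0.22) and Mir1932 (2.55, -0.28), in orange, lie far to the right near 0 on the vertical axis, Mir187 (1.46, -1.35) lies to the lower right, and most members cluster around the origin.

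Without Iso, Mir5112 was the only member past the test between genotypes, higher in DKO. Its untreated values were 5.73, 5.81 and 6.46 in WT and 7.45, 7.18 and 7.88 in DKO, with no overlap. The log2 difference was 1.50 (SE 0.23, 2.84-fold, adjusted p = 0.0195 in limma); of all genes 28 passed (0.204%), 14 in each direction (0.102%). The call was lost without WT array 1 (1.37, adjusted p = 0.124), WT array 2 (1.41, 0.117) or DKO array 1 (1.53, 0.0720). It was also lost without the level filter (0.0556), with the untreated arrays fitted alone (0.231) and with arrays aligned on small nucleolar RNAs (0.74, adjusted p = 0.0524). In the 2 comparisons without treatment and with it, Mir5112 thus took opposite signs, since with Iso it was lower in DKO.

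Mir1247 showed a larger but more variable difference. It read 4.82, 3.94 and 4.63 in untreated WT and 7.04, 6.08 and 7.89 in untreated DKO, without overlap. The log2 difference was 2.54 (SE 0.50, 5.82-fold), with an adjusted p of 0.0837 that missed the threshold. It passed in 5 of 21 alternatives: with array weights (2.58, adjusted p = 0.00348), without untreated DKO array 2 (3.00, 0.0213), without Iso-treated WT array 2 (0.0268), with arrays aligned on small nucleolar RNAs (1.78, 0.0319) and without Iso-treated WT array 3 (0.0454). Over all 21 the adjusted p ran from 0.00348 to 0.252. With Iso the values were 5.51, 4.07 and 6.23 in WT and 6.57, 6.33 and 6.59 in DKO, a difference of 1.23 (adjusted p = 0.548). Mir1247 overlaps the long noncoding RNA gene Dio3os on the same strand, and Dio3os itself, named because of that overlap, differed by 0.12 without Iso and -0.05 with it.

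Mir328 differed by 1.28 (adjusted p = 0.176), with 3.75 to 4.32 in WT against 4.66 to 6.00 in DKO. Mir761 differed by 1.01 (0.188), with all DKO values from 5.15 to 6.48 and WT values from 4.24 to 5.14. Mir3065 differed by 0.47 (0.193) and Mir3061, kept only through its 3 untreated DKO arrays, by 0.45 (0.203); both turned negative, at -0.30 and -0.31, when arrays were aligned on small nucleolar RNAs. Mir187 differed by 0.98 (0.250) and Mir1932 by 0.34 (0.522), and the last of these turned to -0.42 under that alignment.

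The members' median without Iso was 0.07, against -0.01 for all genes, and 82 of 141 lay above 0. At an unadjusted p under 0.05 there were 30 members (21.3%, against 13.8% of all genes), 26 higher and 4 lower, and 33 had groups without overlap (23.4%, against 17.0%). On the same arrays the 61 small nucleolar RNAs had a median difference of 0.62, with 46 of 61 above 0. Of the 8 endothelial markers, 7 lay above 0, with a median of 0.42, and 4 (Kdr, Tek, Tie1 and Eng) reached an unadjusted p under 0.05, although none passed in limma. Of the 4 atrial markers, 1 lay above 0, and Nppa passed, lower in DKO (-1.61, adjusted p = 0.00733 in limma). The part of these RNAs and cells in the signals of the members was not tested. Aligned on the small nucleolar RNAs, the members' median became -0.69 and that of all genes -0.77, and 48 members passed, against 5864 of all genes. Without DKO array 2, 4 members passed (Mir1247, Mir5112, Mir761 and Mirlet7a-1), against 180 of all genes.

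With Iso, 3 members passed between the genotypes, all lower in DKO. Of all genes 42 passed (0.306%), 27 of them lower (0.197%) and 15 higher (0.109%). Mir5112 read 10.26, 10.08 and 10.56 in WT and 6.96, 7.39 and 7.50 in DKO, a log2 difference of -3.02 (SE 0.23, adjusted p = 7.786e-05 in limma). Mir1932 read 5.95, 6.20 and 6.76 in WT and 3.96, 3.91 and 3.57 in DKO, a difference of -2.49 (SE 0.23, adjusted p = 0.000274). Neither overlapped between the genotypes.

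Mir187 read 6.39, 6.40 and 6.58 in WT and 4.30, 4.43 and 5.14 in DKO, again without overlap. The difference was -1.84 (SE 0.34, adjusted p = 0.0483). This call lies at the threshold: it was lost in 12 of 21 alternatives, including the removal of any 1 of the 6 Iso-treated arrays, any 1 of the 3 untreated WT arrays or untreated DKO array 1, and the adjusted p ran from 0.0036 to 0.271. The difference itself kept between -2.10 and -1.60. All of these comparisons share arrays, since the Iso-treated WT arrays enter the Iso effect in WT, the difference of effects and the genotype difference with Iso.

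Other members did not pass with Iso. Mir138-2 differed by 0.98 (adjusted p = 0.364), with 2.69 to 3.08 in WT against 3.30 to 4.71 in DKO, and was above the median on only 3 arrays. Mir134, a neuronal microRNA, differed by -0.46 (0.270), and Mir5129 by 0.53 (0.363). The median over members was 0.02, against 0.00 over all genes; 14 members (9.93%, against 7.91%) reached an unadjusted p under 0.05 and 19 had groups without overlap (13.5%, against 17.6%). In this comparison 1 of 4 atrial (Nppa, -1.28), 1 of 7 macrophage (Cd14, -0.92) and 1 of 2 tested erythroid markers (Hbb-bt, -2.05) passed, all lower in DKO, and 0 of 4 mesothelial markers in limma. The part of such cells in the signals of the 3 members was not tested.

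How much single members varied was summarised by the SD over all 12 arrays. Its median was 0.30 over the members, against 0.23 over all genes kept, and it ran from 0.0781 to 1.66. Only Mir5112 (1.66), Mir1247 (1.23) and Mir1932 (1.13) exceeded 1. Differences over 1 on the log2 scale were found for Iso in 5 members in WT (3.55%, against 0.211% of all genes) and 2 in DKO (1.42%, against 0.611%). They were found for the difference of effects in 8 (5.67%, against 1.7%), and between genotypes in 7 without Iso (4.96%, against 0.75%) and 4 with it (2.84%, against 0.539%). Mir5112, Mir1932 and Mir187, named in the rule with results of these arrays known, are among the members counted. These shares are therefore a description.

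The genes that hold a hairpin were compared with the hairpin's own probe set. By RefSeq spans, 97 members lay inside another gene and 44 inside none; 85 lay in a protein-coding gene and 14 in a long noncoding RNA gene. Of 102 such pairs, 65 had a tested holding gene. The correlation of the pair over the 12 arrays had a median of 0.07 (from -0.658 to 0.703), and over the 44 pairs known to lie on the same strand the median was 0.03. One pair was above 0.7, Mir378b with Msi2, which lie on opposite strands. These values are descriptions over arrays that share groups.

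For the members named above, the holding genes gave the following values. Rnf213, a ubiquitin ligase gene linked to vascular disease, holds Mir1932 on the same strand; it differed by 0.21 for Iso in WT and by -0.04 between genotypes with Iso, where Mir1932 differed by 2.55 and -2.49. Their correlation was 0.218. Mir187 lies in Gm32547, a long noncoding RNA gene not analysed here. Mir761 lies in Nrd1, whose correlation with it was -0.63, and Mir138-2 in Nup93, a nuclear pore gene, with 0.619. Mir483 lies in Igf2 (-0.06), Mir3097 in Rgs12 (0.192), Mir5129 in Zeb2 (-0.01), and Mir3065 opposite to Aatk (0.0796). Mir328 lies in Elmo3, Mir467c in Sfmbt2 and Mir760 in Gm40190, none of which was tested.

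Mir5112, Mir1247, Mir5099 and Mir134 are among those without a holding gene by this table, apart from the overlap of Mir1247 with Dio3os.

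By RefSeq spans, the cluster in Sfmbt2 is the largest set of members inside a single gene, with 8 members. The span of Rtl1, an imprinted gene, held 4 (Mir431, Mir540, Mir665 and Mir673), all on the + strand. Lying inside a span does not show that a hairpin belongs to the transcript of that gene. The Mir466, Mir467, Mir669 and Mir297 names, most of them from the Sfmbt2 cluster, made up 12 members. Their Iso difference had a median of 0.41 in WT, with 9 of 12 above 0, and 0.40 in DKO, with 10 of 12 above 0 and a range from -0.14 to 1.07; with arrays aligned on small nucleolar RNAs the medians were 0.00 and 1.00, with 6 of 12 and 12 of 12 above 0. None of the 12 passed in any comparison in limma, and 2 (Mir466f-4 and Mir467c) reached an unadjusted p under 0.05 for Iso in WT, where 6.7% of all genes did, and 5 in DKO, where 18.4% did, these and Mir466d, Mir466j and Mir669n. Their sequences resemble each other, so their probe sets may share signal and the 12 are not independent.

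Members rarely shared a seed. The 189 mature strands of members held 181 distinct seeds, and 8 seeds occurred in 2 members each. Mir181c and Mir181d, neighbours in the genome, share ACAUUCA, and Mir25 and Mir92b share AUUGCAC, the seed of the miR-25/92 family. These strands are printed to show how far such pairs agree beyond the seed.
miR-181c-5p: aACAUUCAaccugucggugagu
miR-181d-5p: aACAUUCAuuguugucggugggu
miR-25-3p: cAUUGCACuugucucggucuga
miR-92b-3p: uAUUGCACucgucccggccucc

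Mir181c ranged from 4.42 to 5.57 over the 12 arrays and Mir181d from 5.83 to 7.48. Mir25 ranged from 3.00 to 3.84 and Mir92b from 3.61 to 5.16. None of these 4, named after the seeds were found, passed in any comparison.

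The 9 members from the heart list did not pass in any comparison either in limma; their medians were 0.12 and -0.10 for Iso in WT and in DKO, -0.22 for the difference of effects, and 0.14 and -0.03 between genotypes without and with Iso. The number at an unadjusted p under 0.05 was 2 of 9 without Iso between genotypes (Mir142 and Mirlet7a-1), against 13.8% of all genes, and 0 in the other 4 comparisons. Mirlet7a-1, a let-7 gene, had the largest difference of these without Iso, with 5.33, 5.25 and 5.36 in WT and 5.82, 5.29 and 6.43 in DKO (0.53, adjusted p = 0.297). Mir30c-2 followed with 5.22, 4.75 and 5.32 and 5.33, 5.32 and 6.21 (0.52, 0.424). In both, the highest value of all was that of untreated DKO array 3.

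The genes that make and use microRNAs were read from a list of 36, of which 33 were on the array and 32 were tested. None passed in any of the 5 comparisons in limma. At an unadjusted p under 0.05 there were 3 and 6 of them for Iso in WT and in DKO, 3 for the difference of effects, and 6 and 3 between genotypes without and with Iso. The shares of all genes in the same order were 6.7%, 18.4%, 10.1%, 13.8% and 7.91%. Drosha, the nuclear RNase, read 6.69, 6.89 and 6.62 in untreated WT, 6.57, 6.32 and 6.63 with Iso, 6.38, 6.50 and 6.16 in untreated DKO and 6.52, 6.36 and 6.26 with Iso; its largest difference was -0.38 between genotypes without Iso (adjusted p = 0.261).

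The other core genes did not pass either. Dgcr8, the partner of Drosha, differed by -0.29 in that comparison (0.310) and by -0.10 for Iso in WT (0.956). Xpo5, the exporter of hairpins, differed by 0.35 without Iso (0.346) and 0.35 with it (0.597). Dicer1 differed by 0.08 for Iso in WT (0.976) and 0.03 in DKO (0.931), Ago2, the slicing Argonaute, by 0.07 (0.989) and 0.17 (0.660), and Tnrc6a, which links Argonaute to deadenylation, by 0.19 (0.900) and 0.12 (0.699).

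Across the 12 arrays, the genes most like Mir5112 among the 13736 others kept, by Pearson correlation, were Mir1932 (0.936), Esr1 (0.921), Ighg2c (0.865), Rgs2 (0.852) and Mybph (0.850). Esr1 read 4.79, 4.76 and 5.17 in untreated WT, 7.95, 6.64 and 8.30 with Iso, 5.29, 5.36 and 6.41 in untreated DKO and 5.14, 4.75 and 5.25 with Iso. Its Iso difference was 2.72 in WT (adjusted p = 0.0394) and -0.64 in DKO (0.379). Rgs2, a regulator of G protein signalling, read 6.50 to 7.13 untreated and 7.44 to 7.68 with Iso in WT, a difference of 0.80 (0.329), and 0.20 in DKO (0.547). Ighg2c, an immunoglobulin constant region, differed by 0.98 in WT (0.224), and Mybph, a myosin binding protein, by 0.29 (0.656). Mir187 ranked 88th, with 0.703. These correlations are descriptions, since the 12 arrays share 4 groups.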

How the data were processed

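Total RNA of 12 samples was labelled as biotinylated cRNA for Affymetrix arrays, per the labels' protocols. The authors deposited log2 values made with RMA, per the submitters' processing notes; the sources used here do not give RMA's version, the array type or the annotation build. The table held 25428 probe sets, 24705 with 1 gene symbol and 723 without, and gave 24704 symbols, the brighter probe set being used where a symbol had 2. Values ran from 2.25 to 13.8 and were used as deposited. With 3 arrays per group, p-values measure the spread between these arrays; the labels call the replicates biological.

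Genes above their array's median on at least 3 of 12 arrays were kept (13737). limma 3.58.1 in R 4.3.3 fitted 4 group means over all 12 arrays with eBayes, and adjusted p-values by Benjamini-Hochberg over the 13737 genes, with a threshold of 0.05. The script was tested on simulated data. Symbols came from GEO's platform annotation, spans and sequences from RefSeq GRCm38.p6, whose coordinates are printed only beside sequences; all 141 members were found in its gene table. Mature or hairpin sequences of Mir5112, Mir187 and others are not used here.

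The members, the lists (heart microRNAs, microRNA machinery, CaMKII genes, cell markers) and the tests were chosen with earlier results of these data known. Named are members passing any comparison, Mir5112, Mir1932 and Mir187, the 6 smallest p-values per comparison, the heart list, the 10 highest means, 3 probe sets on each side of the threshold, the 5 genes most like Mir5112, the core machinery genes and the genes holding a named member. Others are said to be named after their values were seen.

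Alternatives were another filter or none, median centring, quantile scaling, alignment on 61 small nucleolar RNAs, trend and robust eBayes, fits with array weights, a block for the mouse (random or fixed), fits of the compared arrays alone, and the removal of each array in turn. The pairing comes from the mouse numbers in the labels: each mouse gave an untreated and a treated array. Their deviations from the group means correlated at 0.0073, 0.0864 and 0.13 in DKO mice and -0.0623, 0.0566 and 0.0109 in WT mice over genes that are not independent.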

Additional observations from a re-analysis of the deposited data

Results flagged for a closer look

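The effect of Iso differed between the genotypes for Mir5112 (-4.52 in DKO minus WT, log2) and for Mir1932 (-2.83), by the test of the difference itself (adjusted p = 7.871e-05 and 0.00642 in limma). The values of Mir5112 with Iso were 10.08 to 10.56 in WT and 6.96 to 7.50 in DKO, and those of Mir1932 were 5.95 to 6.76 and 3.57 to 3.96. Groups of 3 arrays are too small for a search for single outlying arrays.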

How the results depend on the processing

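Of 725 values of named members under 22 alternatives, 676 kept their direction and their side of the threshold, 19 lost a call, 24 gained one and 6 changed sign. All 6 reversals came from aligning the arrays on small nucleolar RNAs, which moved the median of all genes to -0.41, 0.60, 1.01, -0.77 and 0.24 in the order Iso in WT, Iso in DKO, difference of effects, and genotype without and with Iso: Mir1932 0.32, Mir3061 0.0397 and Mir5112 0.38 for Iso in DKO, and Mir1932 -0.42, Mir3061 -0.31 and Mir3065 -0.30 between genotypes without Iso. Under that alignment 1 member passed for Iso in DKO, 1 for the difference of effects (Mir1932 at an adjusted p of 0.0686) and 48 between genotypes without Iso. Array weights gave 15 members for Iso in DKO (1109 of all genes) and 7 between genotypes without Iso (698); no filter and only the arrays compared gave 0 for the latter. Leaving out each array in turn gave 2 to 3 members for Iso in WT, 0 to 5 for Iso in DKO, 2 to 3 for the difference of effects, and 0 to 4 and 2 to 3 between genotypes without and with Iso. Apart from Mir187 in the difference of effects, the mouse as a replicate block changed no call: the fixed block gave 2, 0 and 3 members for Iso in WT, Iso in DKO and the difference. The cause of these changes was not tested. Separately, the array medians were 3.31 to 3.32 and the lowest value on any array was 2.25, which limits how far members near the median can fall. The part of that limit in these results was not tested.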
